A study of Caenorhabditis elegans with 2 samples.

Results

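The X chromosome of Caenorhabditis elegans carried 482 reproducible peaks of tagged DAF-19 that lay away from the small RNA genes. They were taken from 117986 ranked peaks called on both replicates together. The conditions were a −log10 of the irreproducible discovery rate (IDR) of 1.3 or more, a position on X, and a summit more than 200 bp from every tRNA, snRNA, snoRNA and rRNA gene. The IDR is the estimated share of peaks that would not recur between replicates, and 1.3 stands for an IDR of 0.05. Of all ranked peaks, 2.62% passed that cut (3086 peaks), and of the ranked X peaks 2.44% passed (632 of 25866). The rule removed 150 of these X peaks for lying near a small RNA gene. The same rule on the 5 autosomes left 2244 peaks, which are the comparison used below.

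The study has 1 group with 2 biological replicates. Both are whole L4 larvae, 48 hours old, of strain OP794, grown from L1 larvae that had been starved after bleaching. The animals carry the integrated transgene wgIs794, in which daf-19 is fused to TY1, EGFP and 3xFLAG beside a rescuing copy of unc-119, in an unc-119(tm4063) background. Chromatin was sonicated to 200 to 800 bp and precipitated with an antibody against GFP. Whole animals mix all tissues, so strong binding in few cells and weak binding in many cannot be told apart. No sex is given, and the peak lists hold no expression values with which the stage could be checked.

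DAF-19 is the only RFX transcription factor of the worm. It is known for switching on the genes of sensory cilia through the X-box, a promoter element made of a pair of inverted arms. The X chromosome is also the target of the dosage compensation complex, which in hermaphrodites binds both X chromosomes and lowers their transcription. That complex is known to load at recruitment elements on X that carry a short sequence called the MEX motif.

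Members were chosen by reproducibility within these same lists, so their signals and ranks are given as descriptions. With 1 group and no second condition no test was made. Shares carry 95% Wilson intervals, which hold for counting error alone. Where a count is 0, the share said to be allowed is instead 3 counts of the total. Neighbouring peaks can share a source. The signal is the authors' own peak value on a scale the sources used here do not explain. The depth of the libraries is unknown, because no file gives read counts.

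The strongest X peaks shared a sequence. The letters GCGCAGGG, the core of the MEX motif, were looked for, on either strand, in the 100 bp to each side of a summit. They were present at 8 of the 20 X peaks of highest signal (40%, interval 21.9 to 61.3), and at 2 of the other 462 X peaks (0.433%, interval 0.119 to 1.56). Over all X members the share was 10 of 482 (2.07%, interval 1.13 to 3.78), against 1 of 2244 autosomal peaks (0.0446%, interval 0.00790 to 0.252). Cut into windows of 201 bp, X held these letters in 75 of 88153 windows (0.0851%) and the autosomes in 227 of 410713 windows (0.0553%). The 20 strongest autosomal peaks had no core, but a count of 0 of 20 allows a share of up to 15%. The 150 X peaks near small RNA genes had no core either, which allows up to 2%. The search was chosen after the summit positions of these peaks had been seen.

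The following sequences show the core at the X peaks with the strongest signals, with 1 match drawn from each peak. Each is read 5′ to 3′ on the strand named, from the RefSeq sequence of assembly WBcel235 (ce11), with the 8 core letters in capitals. Peaks are numbered by their signal among the 482.
Peak 1, chrX:11094105-11094151, minus strand: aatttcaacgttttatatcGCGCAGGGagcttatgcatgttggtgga
Peak 2, chrX:14525880-14525926, minus strand: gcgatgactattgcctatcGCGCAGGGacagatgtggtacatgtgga
Peak 6, chrX:8036416-8036462, plus strand: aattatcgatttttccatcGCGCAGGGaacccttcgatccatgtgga
Peak 7, chrX:6296557-6296603, plus strand: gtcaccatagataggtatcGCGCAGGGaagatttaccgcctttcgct
Peak 8, chrX:5429571-5429617, plus strand: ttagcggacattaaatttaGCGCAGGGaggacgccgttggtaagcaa
Peak 10, chrX:16682152-16682198, minus strand: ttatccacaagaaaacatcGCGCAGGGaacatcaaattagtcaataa
Peak 13, chrX:806655-806701, plus strand: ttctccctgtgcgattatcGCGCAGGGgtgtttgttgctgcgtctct
Peak 15, chrX:1345037-1345083, plus strand: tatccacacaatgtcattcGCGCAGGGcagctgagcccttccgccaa

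Peaks 5 and 9 had the last 7 of these letters, CGCAGGG, which the longer core contains. The shorter core lay at 12 X members (2.49%, interval 1.43 to 4.30), against 14 autosomal peaks (0.624%, interval 0.372 to 1.04). It was in 0.327% of all X windows and 0.313% of all autosomal windows. Among the 20 strongest of each set it lay at 10 X peaks and 1 autosomal peak. The sequences of the shorter core at peaks 5 and 9 are shown with the 7 letters in capitals.
Peak 5, chrX:16056513-16056559, minus strand: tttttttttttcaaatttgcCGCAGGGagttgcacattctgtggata
Peak 9, chrX:11937522-11937568, plus strand: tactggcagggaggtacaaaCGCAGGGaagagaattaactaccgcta

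Peaks 3 and 4 and peak 16 had neither core exactly, but each had the 8 letters with 1 substitution. At peaks 3 and 4 the substitution was C4A, counted from 1 at the 5′ end of the core, with the core's base first. Peak 16 had C4A in 1 copy and G8A in another, and the copy with C4A is shown. The capitals mark the 8 letters that align with the core.
Peak 3, chrX:13700884-13700930, minus strand: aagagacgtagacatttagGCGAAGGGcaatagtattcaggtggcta
Peak 4, chrX:9465864-9465910, plus strand: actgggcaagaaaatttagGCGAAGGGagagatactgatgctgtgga
Peak 16, chrX:17544499-17544545, plus strand: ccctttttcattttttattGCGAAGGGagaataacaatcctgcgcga

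With up to 1 substitution allowed, each of the 10 strongest X peaks had the 8-letter core. The count was 13 of the 20 strongest X peaks (65.0%, interval 43.3 to 81.9) and 23 of the other 462 (4.98%, interval 3.34 to 7.36). The share was 5.04% of autosomal peaks (113 of 2244) and 2.60% of all X windows. So only the strongest X peaks stood apart from the share of all autosomal peaks under this looser search. The 20 strongest autosomal peaks were not counted apart in it.

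The 12 X peaks with a core held 16 matches, 14 of them with all 8 letters, and 4 peaks held more than 1 match. Peaks 1, 6, 7 and 13 were those with a pair of matches. The match centres lay at a median of 48 bp from the summit, and 9 of the 16 were within 50 bp. The search reached only 100 bp to each side, so these distances do not show that the core gathers close to the summits. The base after the core was A in 13 of the 16 matches. Of the bases before the 8 letters, the nearest was C in 10 matches and the next was T in 12 matches. The letters TGTGGA, noticed in several of the flanks, were found within 100 bp of the summit at 9 of the 20 strongest X peaks. They had been picked from flanks of these same peaks, so that count was set in part by the choice. The same letters were at 9.79% of X members without a core, 10.1% of autosomal peaks and 8.84% of all X windows. The 20 strongest autosomal peaks were not counted apart.

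Most copies of the core in the genome had no summit of these peaks within 100 bp. X held 81 copies of GCGCAGGG (4.57 per Mb), of which 14 (17.3%) were within 100 bp of a member summit. The autosomes held 233 copies (2.82 per Mb), of which 1 (0.429%) was that close to a peak of the same rule. The core was also found at the peaks called from each replicate alone, in lists that are shorter at the same cut. It lay at 10 of the 100 X peaks of replicate 1 and at 9 of the 101 X peaks of replicate 2. The replicates' 619 and 578 autosomal peaks held none, which allows shares of up to 0.485% and 0.519% (3 counts of the total). Each replicate's own 20 strongest X peaks included 8 with the 8-letter core. Whether the control experiment also has signal at these positions was not tested, since its data were not analysed here.

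**Figure D1:**
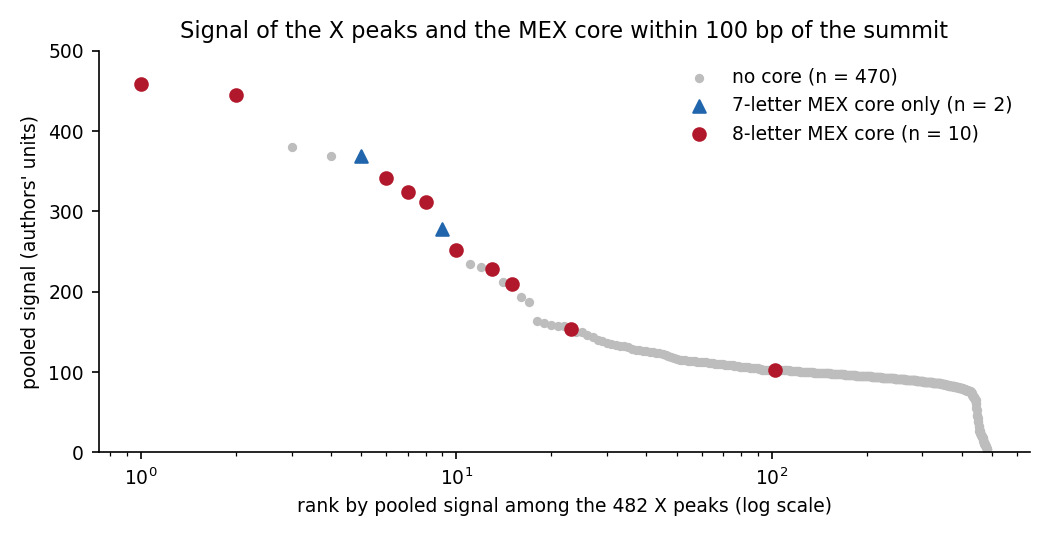
Pooled signal (authors' units, vertical axis) of each of the 482 X peaks against its rank by signal (log axis), 1 point per peak. Peaks with the 8-letter MEX core within 100 bp of the summit (red) hold ranks 1, 2, 6, 7, 8, 10, 13, 15, 23 and 102, and those with the 7-letter core only (blue triangles) hold ranks 5 and 9.

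**Figure D2:**
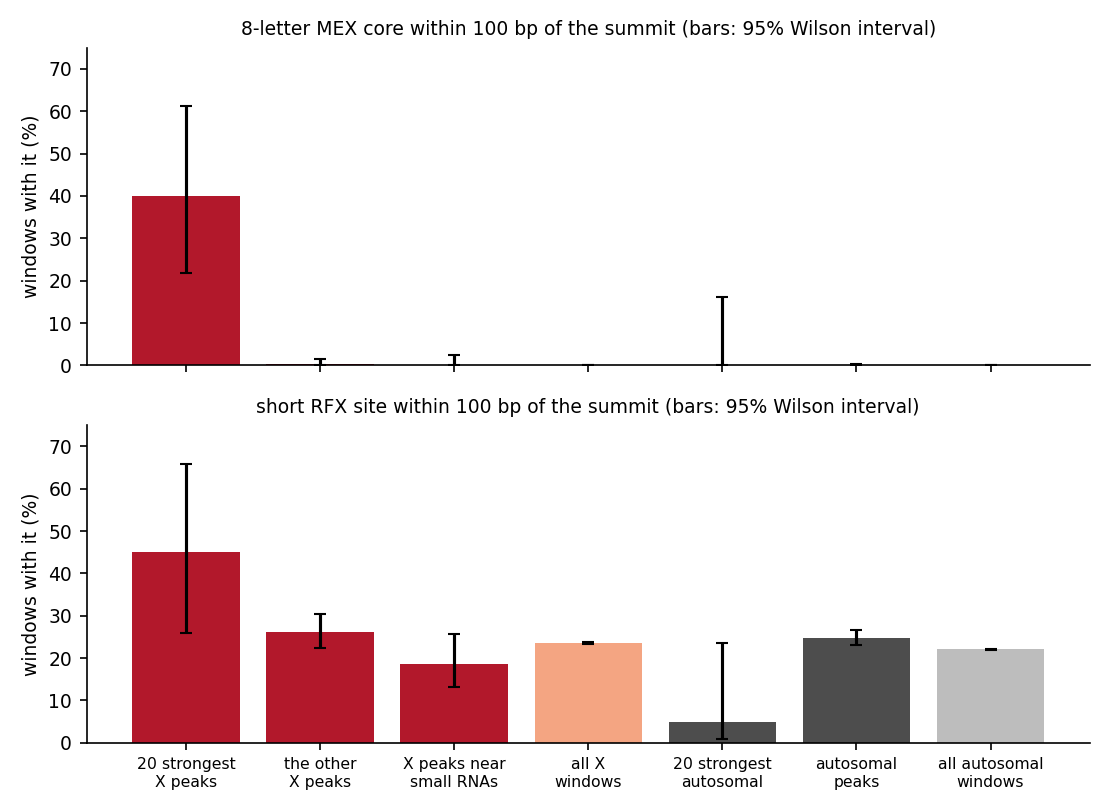
Share of windows of 201 bp (vertical axis, percent) with the 8-letter MEX core (top) or the short RFX site GTTNCC (bottom), in X peaks, all X windows, autosomal peaks and all autosomal windows. Lines are 95% Wilson intervals. The core is at 40% of the 20 strongest X peaks and at 0.433% of the other 462.

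Signals on X were narrowly spread apart from those few peaks. The pooled signal had a median of 92.2 (quartiles 83.5 and 101), against a median of 94.0 for the autosomal peaks. The highest X signal was 459, against 782 on the autosomes. Signals of 200 or more belonged to 15 X peaks (3.11%), against 55 autosomal peaks (2.45%), and 8 X peaks reached 300. At the low end 33 X peaks had a signal below 40. All 33 overlapped a stronger ranked peak. Members that overlap a stronger ranked peak are called shoulders below, and the shape of the peaks was not examined.

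Peak 1, at chrX:11094094-11094280, was intergenic, 2804 bp from the nearest protein-coding gene W02H3.3. Its pooled signal was 459 and its replicate 1 signal was 230. Replicate 2 had no peak over the summit, but a replicate 2 peak of 233 overlapped the region, and it was the strongest of that replicate's X peaks away from small RNA genes. Both replicates were therefore high at this region, although the replicate 2 peak did not cover the pooled summit.

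Peak 2, at chrX:14525823-14526033, had a pooled signal of 444, with 241 in replicate 1 and 171 in replicate 2. It lay 725 bp upstream of nspc-17, a gene of the nematode-specific peptide family group C, which has 17 listed members on X. Peak 3, at chrX:13700647-13701026, reached 380, with 208 in replicate 1 and 165 in replicate 2. It was intergenic, 5036 bp from adm-2, which encodes an ADAM metalloprotease.

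Peak 4 (signal 369, 172 in replicate 1 and 191 in replicate 2) lay 1084 bp from ZK899.6, and peak 5 (signal 369, 206 in replicate 1 and 170 in replicate 2) lay 195 bp from T27A8.7. Peak 6, at chrX:8036328-8036575, reached 341, with 194 in replicate 1 and 134 in replicate 2. Its summit was 4837 bp upstream of xol-1, the switch gene of sex determination that sets dosage compensation, and within 200 bp of the ncRNA gene C18A11.13. It was also the member closest to the distance limit, 209 bp from a tRNA gene.

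Peaks 7 and 8 were the strongest inside genes. Peak 7, at chrX:6296408-6296787, was in an intron of mom-1, the worm Porcupine needed for Wnt secretion, and reached 324 (180 in replicate 1 and 141 in replicate 2). Peak 8, at chrX:5429349-5429728, was in coding sequence of pks-1, a polyketide synthase, and reached 311 (147 in replicate 1 and 151 in replicate 2). Both were high in each replicate.

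Peaks 9 and 10, with signals of 278 and 252, were intergenic, 585 bp from F55G7.5 and 2310 bp from F22H10.2. Of the next 10, with signals of 159 to 235, 6 lay in promoter windows, which cover the 1000 bp before and the 200 bp after a protein-coding transcript start. The strongest were at ftt-2, a 14-3-3 protein (235), pqn-39, a glutamine- and asparagine-rich protein (231), and uggt-1, a glucosyltransferase of protein folding in the endoplasmic reticulum (212). The others were at ins-39, an insulin-related peptide (210), sec-3, an exocyst subunit (164), and mdl-1, a MAD-like helix-loop-helix factor (159). The other 4 were peak 13 (228, near F25E2.2), peak 16 (193, 2926 bp from hlh-29), peak 17 (188, 1422 bp from F56C3.1) and peak 19 (161). Peak 19 was in an intron of F09A5.3, at the microRNA genes mir-55 and mir-56.

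A peak of both replicates covered 440 of the 482 summits, replicate 1 alone covered 18, replicate 2 alone covered 16, and 8 had neither. Counted by overlap with the whole peak, 480 members had a peak in both. Over the summits, replicate 1 signals had a median of 49.6 (38.8 to 241) and replicate 2 signals a median of 44.3 (33.8 to 191). Replicate 1 was the higher at 307 of the 440, with a median ratio to replicate 2 of 1.14, the same as at autosomal peaks. The members had passed a cut set by both replicates' ranks, so how well the replicates' signals follow each other was not read from these peaks.

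Few members passed the cut in a single replicate's own list, but those lists were shorter over all chromosomes. At the cut of 1.3 they held 719 (replicate 1) and 679 (replicate 2) peaks away from small RNA genes, against 2726 in the list of both replicates. The peak of replicate 1 over the summit had its own −log10 IDR of 1.3 or more at 66 members, that of replicate 2 at 64, both at 33 and neither at 385. The strongest members without a peak of 1 replicate over the summit were peak 1, the peak in abts-4 with its summit at chrX:6749405 and the peak near hlh-29 at chrX:17545775. The pooled signals of the last 2 were 125 at 6749405, where replicate 2 had 77.4, and 122 at 17545775, where replicate 2 had 51.1. A replicate 1 peak of 57.9 overlapped the peak at 6749405. No replicate 1 peak overlapped that at 17545775, and its central 51 bp was found 2 times in the genome.

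**Figure D3:**
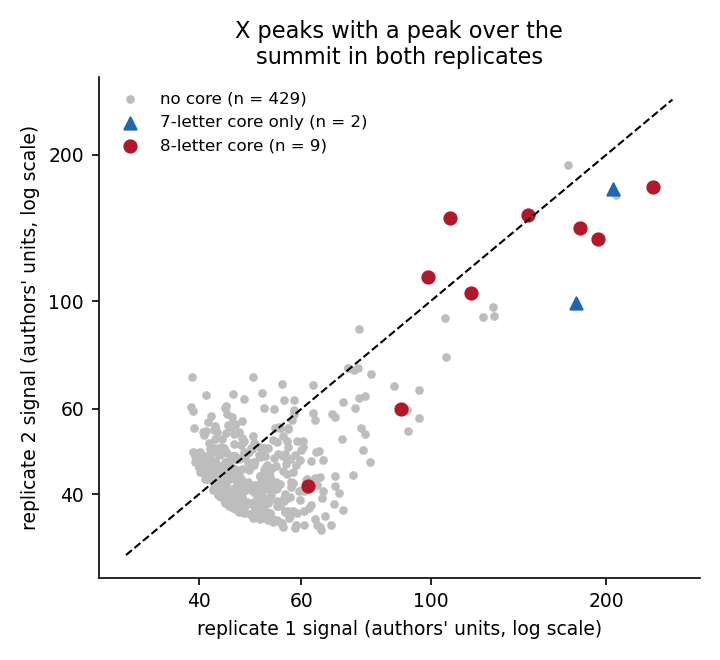
Replicate 2 signal against replicate 1 signal (authors' units, both axes log) at the 440 X peaks with a peak of both replicates over the summit, 1 point per peak, with the line of equal values dashed. Peaks with the 8-letter core (red) or the 7-letter core only (blue triangles) lie mostly at the upper end of both axes.

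The X share of the peaks depended on the cut and on the small RNA genes. Away from small RNA genes, X held 21.5% of the peaks at a cut of 0.5 (5316 of 24697), 19.3% at 1 (1057 of 5479), 17.7% at 1.3 (482 of 2726, interval 16.3 to 19.2) and 13.2% at 2 (94 of 713, interval 10.9 to 15.9). X makes up 17.7% of the nuclear sequence and holds 13.7% of the protein-coding genes. The members therefore had the density of the autosomal peaks, 27.2 per Mb in each case, and at the cut of 2 the share was close to that of genes.

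The other peaks behaved differently. Within 200 bp of a small RNA gene, X held 36.1%, 39.2%, 41.7% and 43.1% of the peaks at the same 4 cuts. With all peaks counted it held 21.8%, 20.7%, 20.5% and 21.7%. In replicate 1's own list X held 18.6%, 14.3%, 13.9% and 14.2% of the peaks away from small RNA genes, and in replicate 2's 18.8%, 15.4%, 14.9% and 14.1%. Away from small RNA genes the share was lower at the highest cut than at the lowest in each of these lists. At cuts of 1 and more the X share of each replicate lay below the 17.7% of sequence, although the upper interval bounds passed it at the cut of 2 (19.1% in replicate 1 and 19.6% in replicate 2) and, in replicate 2, at 1.3 (17.75%).

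**Figure D4:**
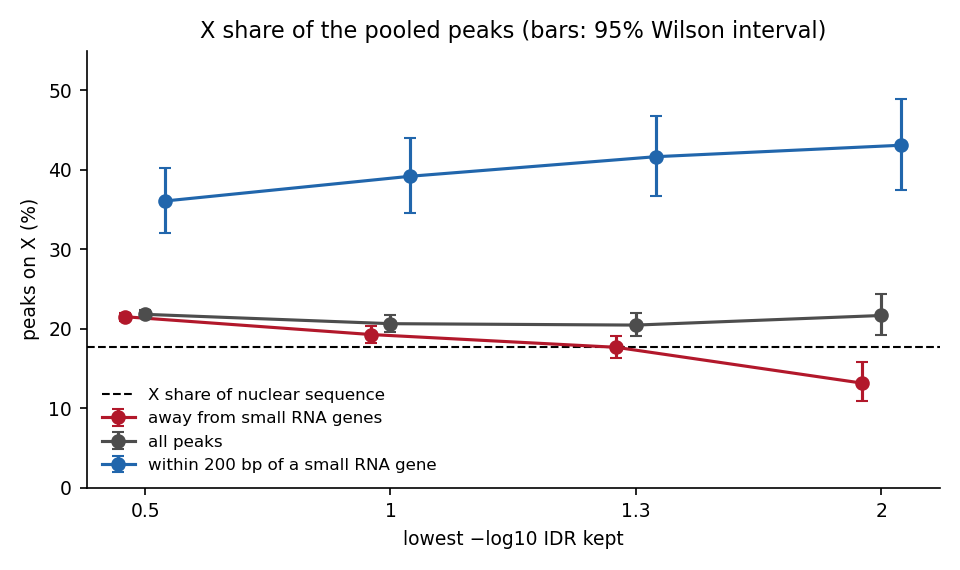
Share of peaks on X (vertical axis, percent) at 4 lower limits of −log10 IDR (horizontal axis), for peaks away from small RNA genes (red), all peaks (grey) and peaks within 200 bp of a small RNA gene (blue). Bars are 95% Wilson intervals and the dashed line is the X share of nuclear sequence, 17.7%. The red points come down to 13.2% at a cut of 2 while the blue points go up to 43.1%.

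X peaks lay in promoter windows less often than autosomal peaks (a difference of −14.4 percentage points). Of the X members 120 of 482 were in a window (24.9%, interval 21.2 to 28.9), against 882 of 2244 autosomal peaks (39.3%, interval 37.3 to 41.3). The single autosomes ran between 33.0% on V and 43% on II. Windows cover 21.8% of X bases and 27.1% of autosomal bases, so the ratio of peak share to base share was 1.14 on X, against 1.45 on the autosomes. On V, the most gene-dense chromosome, that ratio was 1.10. Thus X had the lowest promoter share of the 6 chromosomes, but not the lowest share relative to its windows.

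The difference was seen in both replicates. In replicate 1's list the promoter share was 33.0% on X, against 50.4% on the autosomes, and in replicate 2's list it was 28.7% on X, against 49.3% on the autosomes. The gap was wider at the stricter cut. At a cut of 2, 26.6% of X peaks lay in windows, against 53.0% of autosomal peaks. With each set cut into 4 equal bins of signal, weakest to strongest, the X share was 24.8%, 25.6%, 24.2% and 25%. The autosomal share was 36%, 33.3%, 35.1% and 52.8%. The strongest bin of autosomal peaks thus held the most promoter peaks, and the 4 bins of X differed by less than 2 percentage points.

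By gene part, 118 X summits (24.5%) were in coding sequence, 10 (2.07%) in 5′ UTRs, 9 (1.87%) in 3′ UTRs, 128 (26.6%) in introns and 217 (45.0%) between genes. The same parts make up 19.97%, 1.36%, 3.49%, 30.6% and 44.5% of X bases. Of autosomal peaks, 28.7% were in coding sequence, 2.76% in 5′ UTRs, 5.44% in 3′ UTRs, 25% in introns and 37.6% between genes. In 3′ UTRs the autosomal peaks exceeded their base share of 3.28%, and the 9 X peaks stayed under that of X. Between genes both sets lay close to their share of bases, which is 35.8% on the autosomes.

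Of the 217 intergenic members 87 were in promoter windows and 130 outside. The 130 lay at a median of 1444 bp from the nearest protein-coding gene, and 18 were over 5000 bp away. The farthest was at chrX:10857-11236, near the left end of the chromosome, with a signal of 107, 31585 bp from Y73B3A.1. The next were a peak of signal 109, 11077 bp from npr-4, which encodes a neuropeptide receptor, and a shoulder of signal 9.33, 10045 bp from got-2.2, which encodes an aspartate aminotransferase.

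**Figure D5:**
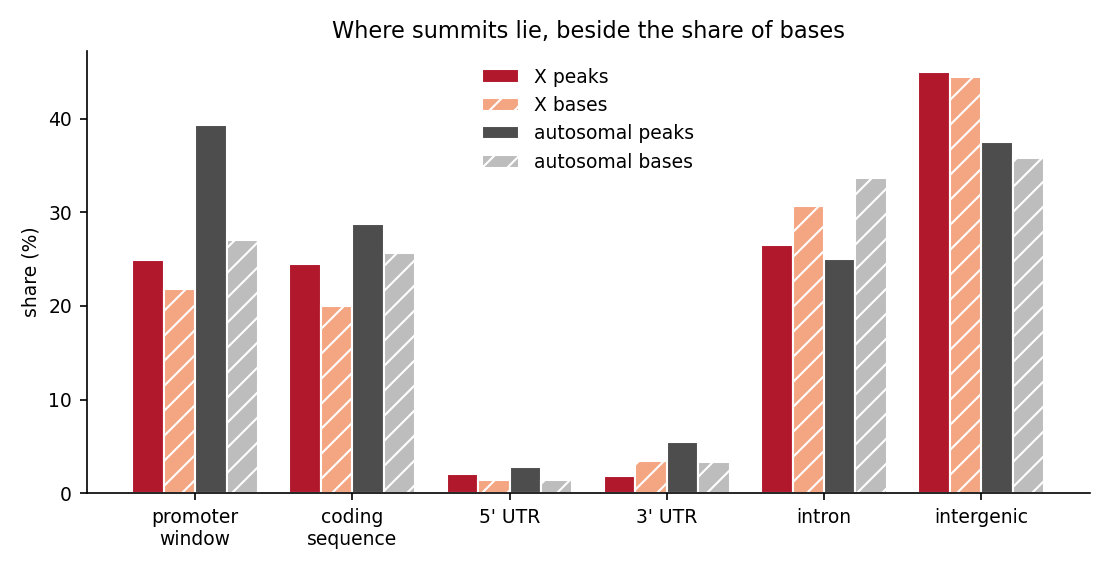
Share of summits (solid bars) and of bases (hatched bars) in promoter windows and in each gene part (vertical axis, percent), for X (red) and the autosomes (grey), with 482 X peaks and 2244 autosomal peaks. Promoter windows overlap the other classes. Promoter windows hold 24.9% of X summits and 39.3% of autosomal summits.

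The 120 promoter members lay in windows of 115 genes, 4.21% of the 2731 protein-coding genes on X. Summits were upstream of the start at 105 of the 120. At 118 members the starts lay on a single strand, and at 2 members on both strands. The strongest after mdl-1 were those of T13C5.6 (157), nfki-1, an IκB-like protein (150), and rpl-11.2, a protein of the large ribosomal subunit (149.9). T13C5.6 and nfki-1 were named after their values were seen. Windows of 10 genes held 2 members each. They were hsp-43, a small heat shock protein, kin-20, a casein kinase 1, puf-9, a Pumilio-family RNA-binding protein, aps-2, a small subunit of the AP-2 clathrin adaptor, nhr-35, a nuclear hormone receptor, mdl-1, B0395.3, C34E11.2, M03F4.6 and ZK470.2. At 7 of the 10 the 2 peaks overlapped, with summits 199 to 256 bp apart, and the weaker one had a signal of 4.79 to 52.8 and was a shoulder of a stronger peak. At kin-20 both members overlapped a stronger ranked peak. The pairs of mdl-1, nhr-35 and M03F4.6 did not overlap.

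Of the cilium genes, the known targets of DAF-19, 10 of the 71 listed are on X, and 1 had a member in its promoter window. This was dyf-6, an intraflagellar transport gene. The summit, at chrX:10386556, lay 48 bp upstream of the start. Its signal was 85.9, below the X median, with 41.6 in replicate 1 and 44.8 in replicate 2. It was also 1 of 3 X members with an X-box consensus within 100 bp, and the centre of that match lay 6 bp from the summit. This match is shown, in capitals, because dyf-6 was the only listed cilium gene on X with a peak in its window.
dyf-6 X-box, chrX:10386543-10386556, plus strand: tgtggcaaGTAACCATGGAGACccggaaag

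Peaks near 2 other cilium genes lay outside their windows. A summit 1327 bp upstream of che-2, an intraflagellar transport gene, measured 86.8 (63.8 in replicate 1 and 41.9 in replicate 2). A summit in an intron of ift-81, also of intraflagellar transport, measured 127 (62.9 in replicate 1 and 67.2 in replicate 2). The remaining X genes of the list, osm-1, osm-5, dyf-7, dyf-11, ifta-1, mksr-1 and jbts-14, had no member in the window or gene.

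The other lists gave small counts. Those of promoter members are to be read beside the 4.21% of all X genes. Those of members inside genes are to be read beside the 212 of 2731 X genes that held one. Of 6 X genes of dosage compensation and X counting, sex-1, a nuclear receptor that counts X chromosomes, had a promoter member (signal 76.0, 678 bp upstream), and fox-1, an RNA-binding protein of the same process, had a member in its coding sequence (86.8). The nearest member to xol-1 was peak 6, and sdc-1, sdc-2 and ceh-39 had no member in the window or gene. Of 9 neuronal transcription factors 1 had a promoter member, ttx-3, a LIM homeodomain factor (87.9). Of 10 synaptic and neuroendocrine genes 1 did, the neuropeptide gene flp-11 (81.5). Of the same list, unc-10 had a member in its coding sequence (99.7) and unc-2 had one in an intron (90.3).

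Of 11 muscle genes 1 had a promoter member, the troponin T gene tnt-2 (89.9), and an intronic member of the actin gene act-4 (120) lay just beyond its window. Of the same list, tnt-3 held 2 members in its coding sequence, 1 of them a shoulder, with a highest signal of 97.3. Of the 2 ribosomal protein genes on X, rpl-11.2 had a promoter member and rpl-25.1 did not. None of 7 epidermal and cuticle genes and none of 8 intestinal genes had a promoter member. The intestinal gene vit-2 held a member in its coding sequence (111). Of the 17 nspc genes only nspc-17 had a promoter member. Peak 2 lies within that cluster, 2331 bp from the start of nspc-16 and 1753 bp from that of nspc-18.

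Inside genes, 212 of the 2731 protein-coding genes on X held a member and 12 held 3 or more. The count was highest for lin-14, a nuclear factor of developmental timing, with 5 summits in introns, 1 of them a shoulder, and a highest signal of 132. F09A5.3, pdk-1, a kinase of insulin signalling, ptr-24, a Patched-related protein, him-4, the extracellular matrix protein hemicentin, and nhr-27, a nuclear hormone receptor, held 4 each, with 1 shoulder each at F09A5.3 and pdk-1. These genes span between 6.64 kb (pdk-1) and 103 kb (nhr-27), and their highest signals ran between 88.1 and 161.

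Members also formed 9 chains of 3 or more summits with gaps under 2 kb. The longest had 5 summits at mdl-1, between positions 6741795 and 6745178. Chains of 4 lay at ftt-2, F09A5.3, pdk-1 and ZK470.2, and chains of 3 at lin-14, B0310.2 and nhr-35. The other chain of 3 was intergenic, 4275 to 6574 bp upstream of hbl-1, a timing factor of the Hunchback family. The chains at mdl-1, hbl-1 and nhr-35 held no shoulder of a stronger peak, that at ZK470.2 held 2, and the other 5 held 1 each. Over the whole chromosome the median gap between summits was 18886 bp. Of the 481 neighbouring pairs 37 overlapped, and 445 members were left when the strongest of each overlapping run was kept.

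Along X, the members were densest between 4 and 6 Mb, with 86 peaks (43 per Mb), of which 38.4% were in promoter windows. They were sparsest beyond 16 Mb, with 30 peaks (17.5 per Mb), 20% of them in windows. The other bins of 2 Mb held 39 to 65 members, with promoter shares of 14% to 28.3%. As a share of the ranked X peaks in each bin, members made up 1.35% (8 to 10 Mb) to 2.80% (14 to 16 Mb). The 15 peaks with a signal of 200 or more were spread over 8 of the 9 bins, with at most 3 in any bin, and the 10 with the 8-letter core over 8 bins.

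The X-box lay at 3 of 482 members (0.622%, interval 0.212 to 1.81), against 39 of 2244 autosomal peaks (1.74%, interval 1.27 to 2.37). It was in 1.81% of all X windows, which the interval of the X members just includes, and in 1.68% of all autosomal windows. Besides dyf-6, the members with an X-box were in an intron of B0403.5 (signal 95) and in the 5′ UTR of B0395.3 (signal 90.3). No member past the cut of 2 had one, and 0 of 94 peaks allows a share of up to 3.19%.

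The short RFX site GTTNCC, 1 arm of the X-box, was searched on both strands in the same windows. It lay at 130 X members (27%, interval 23.2 to 31.1), against 555 autosomal peaks (24.7%, interval 23 to 26.6). All X windows held it at 23.6% and all autosomal windows at 22.1%. In the 4 bins of signal, weakest to strongest, the X share was 18.2%, 27.3%, 25% and 37.5%, and the autosomal share was 22.5%, 25.1%, 24.8% and 26.6%.

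At the cut of 2 the short RFX site was at 44 of 94 X peaks (46.8%, interval 37.0 to 56.8), against 159 of 619 autosomal peaks (25.7%, interval 22.4 to 29.3). Leaving out the 21 X peaks with a MEX core of up to 1 substitution or with the 7-letter core, it was at 33 of 73 (45.2%). The replicates gave unequal values: 27% of 100 X peaks in replicate 1, against 37.6% of 101 in replicate 2. The autosomal shares were 23.1% and 23.7%. Each of the 4 letters at the open position was found at a higher share at the cut of 2 than over all X windows, with GTTTCC at 22.3% of the 94 peaks and 11.8% of X windows. The high share of the strictest pooled peaks was thus not seen in replicate 1's list, whose own cut was 1.3.

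Of other short elements, TATAAA lay at 23.9% of X members (interval 20.3 to 27.9), against 17.3% of autosomal peaks (interval 15.8 to 18.9). All X windows held it at 22.8% and all autosomal windows at 20.9%. GAGAGA lay at 13.9% of X members and 16.8% of autosomal peaks, above its 9.50% of X windows and 10.1% of autosomal windows. CACGTG lay at 4.98% of X members (interval 3.37 to 7.30), against 4.23% of autosomal peaks (interval 3.48 to 5.15). All X windows held it at 2.64% and all autosomal windows at 3.48%.

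Base composition differed little. The median GC content of the summit windows was 39.8% on X, against 38.8% on the autosomes. The whole chromosomes have 35.2% on X and 35.5% on the autosomes. Windows at least 50% repeat-masked made up 4.56% of X members and 9.05% of autosomal peaks. The central 51 bp was unique in the genome at 480 of the 482 members. Genes for other noncoding RNAs were within 200 bp of 53 members, with 45 at ncRNA genes, 5 at lincRNA genes and 4 at microRNA genes. The microRNA genes were mir-54, mir-55 and mir-56 (a pair of members), mir-230 (signal 83.5), and a gene that RefSeq names let-7 (signal 87.8), a regulator of developmental timing.

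The cut is set on the IDR and not on the signal, and the few peaks next to it had overlapping signals. The 3 members just inside had signals of 100.2 near ent-2, 91.7 in an intron of him-4 and 81.2 near R160.10. The 3 X peaks just outside had signals of 92.1 in coding sequence of eat-17, 77.5 near nlp-7 and 84.9 near H01M10.2.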

How the data were processed

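Peaks of tagged DAF-19 from 2 biological replicates of 1 group were read from the deposited lists on assembly ce11. The authors made 1 ranked list for each replicate and 2 for both replicates together. The first list of both replicates was used, and the second was an alternative. The signal value and the −log10 of the IDR are columns of the deposited lists. No source used here names the aligner, the peak caller or the scaling. The 16 per-input columns after the −log10 IDR carry no names and were not used.

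Coordinates are 1-based, and every peak lies within the WBcel235 chromosomes of RefSeq. Genes came from Ensembl release 115, with 19973 protein-coding and 1107 small RNA genes. A replicate's signal at a member is that of its strongest ranked peak over the summit. Gene part was taken in the order coding, 5′ UTR, 3′ UTR, intron, intergenic. X share, promoter share and motif share were computed with Wilson intervals, with no test. Of 209 listed symbols, 208 were found.

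The members, lists and comparisons were chosen with earlier results of these data known. By rule the text names the 20 strongest members, 3 on each side of the cut, those with an X-box, listed genes with a member in the window, the 3 farthest from genes, genes with 2 members, and the 3 strongest lacking a replicate. Other named genes were chosen after their values were seen. The rule and the motif search were tested on simulated data. Tables were made in pandas 2.3.3 and numpy 2.4.6 under Python 3.11.15, intervals with scipy 1.17.1 and figures with matplotlib 3.10.9.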

Additional observations from a re-analysis of the deposited data

How the results depend on the processing

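No paired analysis was possible because there is 1 group and no test. At cuts of 0.5, 1 and 2 the number of X peaks was 5316, 1057 and 94, their share of all peaks away from small RNA genes 21.5%, 19.3% and 13.2%, and the median signal 61.8, 83.0 and 117. At the same cuts the intergenic share was 39%, 40.1% and 58.5%, the intron share 31.5%, 29.99% and 27.7%, the median GC 36.3%, 38.8% and 42%, and the MEX core share 0.263%, 1.04% and 9.57%. The short RFX site was at 46.8% at the cut of 2.

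With summits outside small RNA genes but at any distance, the X share was 19.2%, the intergenic share 48.9% and the median GC 40.3%. The intergenic share was 44.2% beyond 1000 bp and 41.7% also away from other noncoding RNA genes. The second series-wide list gave an X share of 16.8%, an intergenic share of 39.96% and an intron share of 29.9%. The intergenic share was 45.6% with the strongest of overlapping peaks only and 45.5% with summits covered in both replicates.

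Each replicate's list alone gave 100 to 101 X peaks, an X share of 13.9% to 14.9%, a promoter share of 28.7% to 33.0%, a median signal of 58.5 to 64.7, an intergenic share of 52.0% to 52.5%, a median GC of 40.8% to 41.3%, a short RFX site share of 27% to 37.6% and a MEX core share of 8.91% to 10%. The promoter share of X peaks was 14.3% with windows of 500 bp upstream, 37.6% with 2000 bp and 38.2% with starts of all gene types. Under every one of these settings it was below the autosomal share, with a difference of −9.07 to −26.4 percentage points. Windows of 50 bp either side gave a median GC of 40.6%, a short RFX site share of 15.6% and a MEX core share of 1.24%. The MEX settings were chosen after seeing the data. Depth is unknown.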
